A study of Mus musculus with 9 samples.

Results

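The genes of the cytoplasmic ribosome's protein part were followed in organoids grown from mouse small intestine, which are hollow cultures of gut epithelium. Members were taken by name: a gene symbol of the Rpl, Rps or Rplp pattern, or Rpsa, on a probe set annotated to that symbol alone, with kinases of the Rps6k family and pseudogenes left out. This gave 48 genes out of 18193 with such a probe set, and each was read through its brightest one. They comprised 22 proteins of the large subunit, 21 of the small subunit and 5 paralogues, which are second copies that resemble a core ribosomal protein. Of 77 core ribosomal protein genes, 43 had a single-gene probe set, and the other 34 could be read only through probe sets shared with other symbols or through none.

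The study exposed organoids continuously for 5 days, starting on day 1 of a 6-day culture. There were 3 inhibitor arrays (a compound that blocks TGF-beta receptors, at 20 uM), 3 ligand arrays (TGF-beta1 at 0.04 ng/mL) and 3 untreated arrays. The comparisons ask how expression differs when TGF-beta signalling is blocked and when its ligand is added. No source used here names the compound, its solvent, the mouse strain or age, or the culture behind each replicate. The p-values therefore reflect how far arrays of 1 group differ, which may be only technical.

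Ribosomal proteins assemble with ribosomal RNA into the small subunit, which decodes the message, and the large subunit, which joins amino acids. Their messages are among the most abundant of a dividing cell and most begin with an unbroken stretch of pyrimidines, the terminal oligopyrimidine tract, through which LARP1 and the mTOR pathway set their translation. Myc is known to raise the production of ribosomes, and the gut epithelium is renewed by fast-dividing crypt cells, which need many ribosomes. The arrays measured RNA levels only, not translation.

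Values are MAS5 signals, and changes are differences of log2(signal + 16) between group means, given with the standard error of the fit. A gene is said to have risen or fallen where limma's adjusted p, over all 12936 genes above a filter on low signals, was under 0.05. Array medians were signals of 46.1 to 57.9. Of the members, 45 passed the filter and 3 did not: Rpl39l, Rpl3l and Rps16. The single-gene probe set of Rps16 had a signal of at most 4.6 on every array. For 36 of the 45 the mean signal was 8539 to 19093, close to the brightest signals on the arrays, which were 17003 to 24599. The other 9 had mean signals of 182 to 2275. Of the markers of an epithelial culture, 16 of 16 stem and progenitor genes and 21 of 24 enterocyte genes passed the filter, against 4 of 10 fibroblast genes and 3 of 10 leukocyte genes.

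Under the inhibitor 14 of the 45 members fell (31.1%), where 23.9% of all genes fell, and 1 member rose, where 21.0% of all genes rose. Most members lay slightly below untreated: 43 of 45 estimates were below 0, against 51.1% of all genes, and the members' median change was -0.21, against -0.01 for all genes. The share of members that fell was thus not far from that of all genes. On 22 of the 45 members every inhibitor array lay below every untreated array, a larger share than the 29.3% of all genes. On 1 of the 45 every inhibitor array lay above, a smaller share than the 26.6% of all genes. Both subunits took part alike in number: 7 of 22 large-subunit and 6 of 20 small-subunit members fell, with medians of -0.24 and -0.21. Less RNA per cell and fewer cells of a type cannot be told apart in such bulk samples.

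The most changed members were Rpl14, Rps6, Rpl12, Rps25 and the paralogue Rpl22l1, all lower under the inhibitor, and Rpl7l1 was the 1 member that rose. Their promoters are shown here for the pyrimidine tract near the annotated start. Each line gives 40 bases before and 20 bases from the start of transcription annotated by RefSeq in GRCm38.p6, read 5′ to 3′ along the gene. Capitals mark the longest run of C and T that lies within 20 bases on either side of that start.
Rpl14, chr9:120571477-120571536, plus strand: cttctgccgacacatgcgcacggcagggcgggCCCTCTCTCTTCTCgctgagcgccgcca
Rps6, chr4:86857348-86857407, minus strand: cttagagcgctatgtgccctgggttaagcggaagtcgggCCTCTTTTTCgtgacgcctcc
Rpl12, chr2:32961672-32961731, plus strand: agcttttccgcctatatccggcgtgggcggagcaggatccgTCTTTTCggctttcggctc
Rps25, chr9:44407674-44407733, plus strand: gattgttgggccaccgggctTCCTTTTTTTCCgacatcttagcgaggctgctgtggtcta
Rpl22l1, chr3:28805468-28805527, plus strand: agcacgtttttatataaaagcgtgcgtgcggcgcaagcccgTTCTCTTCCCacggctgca
Rpl7l1, chr17:46782637-46782696, minus strand: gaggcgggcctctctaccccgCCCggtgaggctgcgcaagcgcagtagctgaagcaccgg
The run was 14 bases in Rpl14, 10 in Rps6, 7 in Rpl12, 12 in Rps25 and 10 in Rpl22l1. In Rpl7l1 it was 3. The run of Rps25 begins at the edge of the bases searched, and further pyrimidines lie directly before it, so its full length is longer. It also ends before the annotated start.

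Rpl14, a protein of the large subunit, showed the largest change. Its signal was 342.6, 373.3 and 356.3 on the inhibitor arrays, 823.8, 738.9 and 772.8 on the ligand arrays and 757.5, 835.7 and 765.8 on the untreated arrays. All inhibitor arrays lay far below all others, while ligand and untreated arrays overlapped. The change from untreated was -1.10 ± 0.07 (adjusted p 1.61e-07), a fold of 0.466 on the scale with 16 added.

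Rpl12, which sits at the base of the ribosomal stalk, had signals of 526.9, 491.5 and 543.3 with the inhibitor, 970.2, 934.4 and 908.5 with the ligand and 900.8, 931.5 and 881.3 untreated. Again the inhibitor arrays stood clear of the rest. Its change was -0.78 ± 0.07 (adjusted p 1.3e-06). The other stalk members did not pass the test. Rplp0, the scaffold of the stalk, changed by -0.16 ± 0.14 (adjusted p 0.386), and Rplp2, one of the acidic stalk proteins, by -0.27 ± 0.12 (adjusted p 0.101).

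Rpl11 belongs to the particle with the smallest large-subunit RNA, and free Rpl11 is known to bind the p53 inhibitor Mdm2. Its signal was 7666, 8638 and 8117 on inhibitor arrays, 9422, 9784 and 10252 on ligand arrays and 9967, 11162 and 9802 on untreated arrays. It was lower on every inhibitor array, by -0.34 ± 0.08 (adjusted p 0.00475). Rpl13a, a large-subunit protein that in human cells also takes part in silencing inflammatory messages, fell by a similar amount. Its signals were 12840, 14821 and 14121 with the inhibitor, 16676, 18189 and 19084 with the ligand and 18219, 19807 and 18133 untreated, a change of -0.43 ± 0.09 (adjusted p 0.00214).

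Rpl37, also of the large subunit, was less certain. It read 1884, 1953 and 1703 under the inhibitor, 2720, 2952 and 1554 under the ligand and 2724, 2268 and 2712 untreated, so that 1 ligand array was lower than any inhibitor array. The change under the inhibitor was -0.47 ± 0.18 (adjusted p 0.0482), and it missed the threshold in 10 of 20 alternative settings. The other large-subunit members that fell were Rpl10a and Rpl35, named because they passed the test.

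Among large-subunit members that did not pass the test was Rpl22, a protein near the exit of the peptide tunnel that is known to restrain its paralogue Rpl22l1. Its brightest probe set read 11370, 13836 and 12926 with the inhibitor, 13392, 15424 and 17632 with the ligand and 14684, 16276 and 15247 untreated. The inhibitor arrays were all below the untreated ones, yet the change of -0.28 ± 0.11 missed the threshold (adjusted p 0.0562). Its other probe sets did pass in a fit over probe sets, at -0.39 (adjusted p 0.00827) and -1.42 (adjusted p 3.83e-08). Rpl7, the core counterpart of Rpl7l1, changed by -0.16 ± 0.12 (adjusted p 0.317) and Rpl39, at the tunnel exit, by -0.07 ± 0.12 (adjusted p 0.654).

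**Figure D1:**
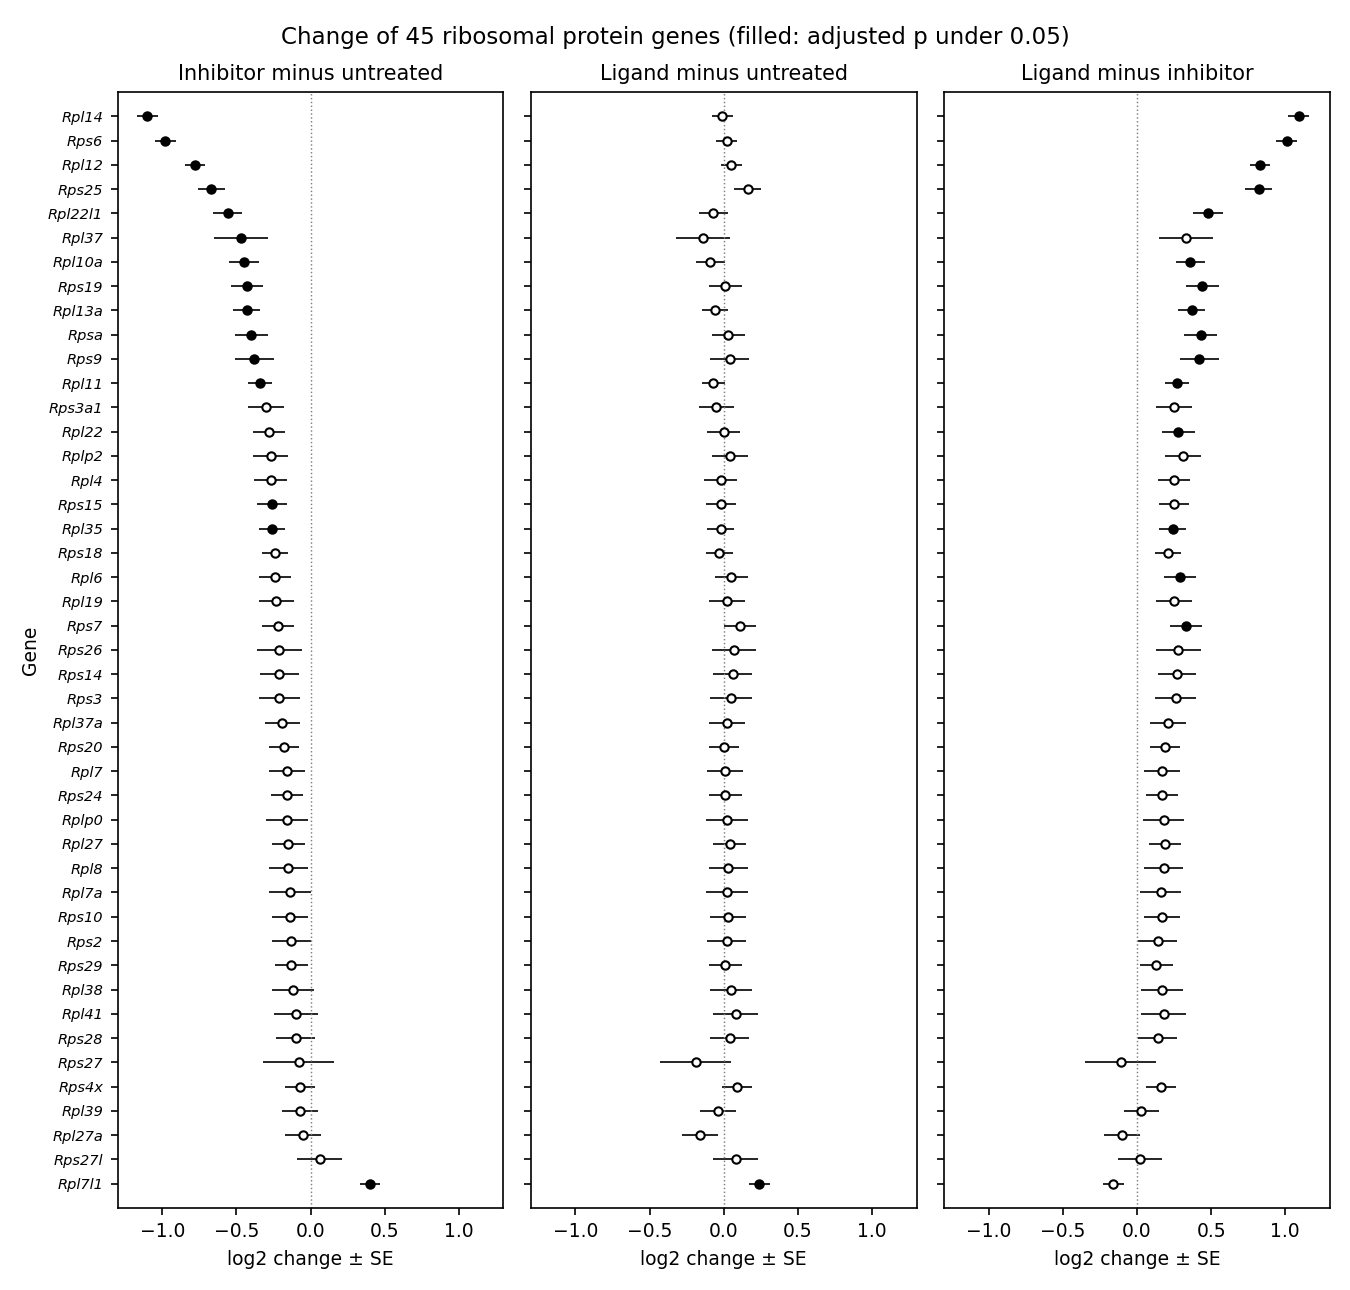
Change of each of the 45 ribosomal protein genes in log2(signal + 16), with its standard error, in 3 comparisons of 3 arrays each, sorted by the change under the inhibitor. Filled points had an adjusted p under 0.05: on the left 14 lie below 0 and Rpl7l1 above it, in the middle only Rpl7l1 is filled, and on the right 15 lie above 0.

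In the small subunit the change was largest in Rps6, the protein that is phosphorylated by the S6 kinases downstream of mTOR. Signals were 1118, 1076 and 1208 on the inhibitor arrays, 2352, 2418 and 2112 on the ligand arrays and 2162, 2345 and 2258 on the untreated arrays. The inhibitor arrays were at about the same low level, and the other 6 arrays overlapped. The change was -0.98 ± 0.07 (adjusted p 3.84e-07). When the mean of its probe sets was used in place of the brightest, the change was -0.35 (adjusted p 0.012), since its second probe set, with a mean signal of 54.8, did not fall.

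Rps25, a small-subunit protein used by several viral messages to start translation, read 395.4, 451.4 and 486.9 with the inhibitor. It read 736.3, 782.5 and 875.9 with the ligand and 667.2, 769.8 and 702.5 untreated. All inhibitor arrays were lower, by -0.67 ± 0.09 (adjusted p 7.32e-05).

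Rps19, the gene most often mutated in Diamond-Blackfan anaemia in humans, had signals of 7609, 9246 and 8718 under the inhibitor, 10315, 11297 and 13292 under the ligand and 10638, 12525 and 11337 untreated. It was lower on all inhibitor arrays, by -0.43 ± 0.11 (adjusted p 0.00576). Of 10 tested members known as Diamond-Blackfan genes, 2 fell (20.0%) and 0 rose, with a median of -0.15, a share near the 23.9% of all genes that fell.

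Rpsa, a small-subunit protein that also serves as a laminin receptor, read 10773, 12414 and 12310 with the inhibitor, 14221, 15144 and 18656 with the ligand and 14280, 16964 and 15564 untreated. The inhibitor arrays lay below the others, with a change of -0.40 ± 0.11 (adjusted p 0.0115). That call was lost when untreated replicate 2 was left out and when arrays were centred on their medians (highest adjusted p 0.057). Rps9 and Rps15 also fell, and are named because they passed the test. The calls of Rps9, Rps15 and the large-subunit Rpl35 were lost in 7, 10 and 9 of 20 alternatives. Rps4x, an X-linked small-subunit protein, changed by -0.07 ± 0.10 (adjusted p 0.618), and Rps27, whose probe set varied widely between replicates, by -0.08 ± 0.24 (adjusted p 0.822).

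The paralogues went separate ways. Rpl22l1, which is usually raised when Rpl22 is lost, read 6025, 7161 and 6673 on inhibitor arrays, 8248, 9245 and 10311 on ligand arrays and 9075, 10228 and 9889 on untreated arrays. It was lower on all inhibitor arrays, by -0.56 ± 0.10 (adjusted p 0.000455).

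Rpl7l1 showed the opposite. Its signals were 1506, 1551 and 1628 with the inhibitor, 1406, 1404 and 1380 with the ligand and 1159, 1265 and 1125 untreated, so the 3 groups did not overlap and the inhibitor arrays were highest. The change under the inhibitor was 0.40 ± 0.07 (adjusted p 0.000295). Its 2 other probe sets also rose under the inhibitor, by 0.35 and 0.55. Rps27l, known as a target of p53, read 10868, 13280 and 12328 with the inhibitor, 10435, 10885 and 16328 with the ligand and 11078, 12387 and 11507 untreated. The groups overlapped and its change of 0.06 ± 0.15 did not pass the test (adjusted p 0.781). A matching symbol, Rps4l, is a transcribed pseudogene in RefSeq and was not counted.

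With the ligand the members hardly departed from untreated, and these values share the 3 untreated arrays with the inhibitor comparison. Only Rpl7l1 rose, 1 of 45, where 14.7% of all genes rose. No member fell, where 9.28% of all genes did. The median change was 0.02, against 0.05 for all genes, and the members' changes ran between -0.19 and 0.24. For Rpl7l1 the change was 0.24 ± 0.07 (adjusted p 0.0192), but it missed the threshold in 5 of 20 alternatives: centring on array medians, the mean of its probe sets, and leaving out ligand replicate 1, untreated replicate 1 or untreated replicate 3. A second probe set of Rpl7l1 gave -0.20 (adjusted p 0.0932 in a fit over probe sets). Under the ligand the changes of Rpl14, Rps6, Rpl12, Rps25 and Rpl22l1 were -0.01, 0.02, 0.05, 0.16 and -0.07.

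Set against the inhibitor arrays, the ligand arrays had 15 of 45 members higher (33.3%), where 32.4% of all genes were higher, and 0 lower, where 22.9% of all genes were lower. The members' median was 0.25 and that of all genes 0.07, and 42 of 45 estimates were above 0, against 55.5% of all genes. On 17 members every ligand array lay above every inhibitor array (35.1% of all genes), and on 1, Rpl7l1, every ligand array lay below (25.5% of all genes). The largest differences were those of Rpl14 (1.09 ± 0.07, adjusted p 6.63e-08), Rps6 (1.01 ± 0.07, adjusted p 1.18e-07) and Rpl12 (0.83 ± 0.07, adjusted p 3.13e-07). Rps25 followed with 0.82 ± 0.09 (adjusted p 6.7e-06), Rpl22l1 with 0.48 ± 0.10 (adjusted p 0.000919) and Rps19 with 0.44 ± 0.11 (adjusted p 0.00358). Rpl22 was just past the threshold at 0.28 ± 0.11 (adjusted p 0.0475), a call lost in 11 of 20 alternatives. Rpl7l1, at -0.16 ± 0.07, was not (adjusted p 0.0577). Its other probe sets did pass in the fit over probe sets, at -0.31 (adjusted p 0.0332) and -0.55 (adjusted p 6.63e-05).

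**Figure D2:**
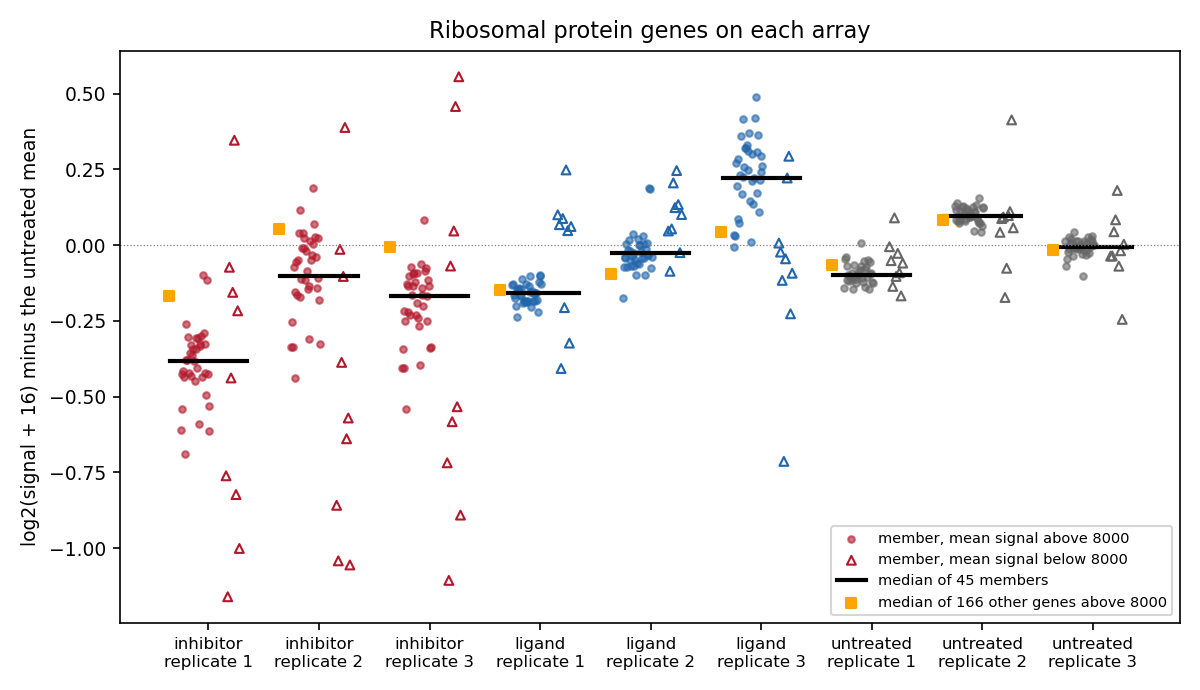
Each point is 1 of the 45 ribosomal protein genes on 1 array, as log2(signal + 16) minus that gene's untreated mean; circles have a mean signal above 8000, triangles below. The black bars, medians of the 45 members, differ between arrays of 1 group, lowest on inhibitor replicate 1 and highest on ligand replicate 3, and the orange squares give the median of 166 other bright genes.

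The bright members moved together from array to array, and within both treated groups this movement was as large as their change under the inhibitor. The median log2 level of the 36 members above a signal of 8000 was 13.46 to 13.76 on inhibitor arrays, 13.69 to 14.07 on ligand arrays and 13.77 to 13.92 on untreated arrays. Inhibitor replicate 1 was the lowest array and ligand replicate 3 the highest. Without inhibitor replicate 1, the median change of all 45 members under the inhibitor was -0.12 in place of -0.21, and that of ligand against inhibitor was 0.16 in place of 0.25. Without ligand replicate 3 the median of ligand against inhibitor was 0.12. Leaving out ligand replicate 1 gave 24 members higher in that comparison in place of 15. The share of all genes in that fit is not given, so this count cannot be set against all genes.

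For comparison, 166 other genes with a mean signal above 8000 had median log2 levels of 13.21 to 13.43 on inhibitor arrays, 13.23 to 13.42 on ligand arrays and 13.31 to 13.46 on untreated arrays. The bright members exceeded these by 0.24 to 0.32 on the inhibitor arrays, by 0.47 to 0.64 on the ligand arrays and by 0.46 to 0.49 on the untreated arrays. On this measure, chosen after the values were seen, the inhibitor arrays lay apart from the other 6. Among those 166 genes 23 fell and 10 rose under the inhibitor, with a median of -0.06. Within each group their median level ranked the arrays in the same order as that of the bright members.

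Centring each array on those 166 genes, also chosen after the values were seen, called more members. Under the inhibitor 23 fell (17.3% of all genes on that scale) and 1 rose (18.8% of all genes). With the ligand 2 rose (13.7% of all genes) and 0 fell (4.84% of all genes). In ligand against inhibitor 39 were higher, in place of 15, where 30.2% of all genes were higher, and 0 were lower, where 18.5% were.

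The largest changes were found among the dimmer members, though not in the dimmest of them. Of the 9 with a mean signal below 8000, 5 fell (55.6%) and 1 rose (11.1%) under the inhibitor, with a median of -0.47. Of the 36 bright members 9 fell (25.0%) and 0 rose, with a median of -0.21, where 23.9% of all genes fell and 21.0% rose. The 3 dimmest members did not pass the test: Rps27 and Rpl39, given above, and Rpl27a, named after its values were seen, at -0.05 ± 0.12 (adjusted p 0.749). Median log2 levels of the 9 were 8.68 to 8.97 on inhibitor arrays, 9.64 to 9.80 on ligand arrays and 9.60 to 9.73 on untreated arrays. These ranges of the inhibitor arrays and of the other 6 did not overlap.

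Probe sets were also read 1 by 1. In a fit over 28653 probe sets, 97 single-gene probe sets of the members passed the filter. Under the inhibitor 29 of them fell, where 20.1% of all probe sets fell, and 3 rose, where 15.0% did. The 20 with a mean signal of 100 to 2500 had a median change of -0.52, with 12 lower and 3 higher. Of all probe sets in that range 26.9% were lower and 20.4% higher. The 7 below a signal of 100 had a median of -0.16 with 0 lower (9.23% of all such probe sets) and 0 higher (6.17%). The 5 of 2500 to 8000 had a median of -0.27 with 2 lower (24.3% of all such probe sets). The 65 above 8000 had a median of -0.22, with 15 lower, where 17.2% of all such probe sets were. In ligand against inhibitor 29 of the 97 were higher (29.4% of all probe sets) and 2 lower (17.9% of all probe sets).

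Both a probe set of 100 to 2500 and one above 8000 were present for 7 genes, with 9 dimmer probe sets. Rpl41 and Rps20 each counted more than once among these. Of the 9, 8 fell more than the brightest one of their gene, though for Rps9 the changes hardly differed (-0.40 ± 0.11 against -0.38 ± 0.13). The examples here were chosen after their values were seen. The dimmer probe set of Rpl22 read 735.6, 676.1 and 774.4 with the inhibitor, 2539, 2541 and 2617 with the ligand and 1965, 1974 and 1972 untreated. These groups did not overlap, and the change of -1.42 ± 0.07 (adjusted p 3.83e-08) stands beside -0.28 for the brightest probe set of Rpl22. Another bright probe set of Rpl22, with a mean signal of 11299, changed by -0.39 ± 0.10 (adjusted p 0.00827). For Rps20, of the small subunit, 2 dimmer probe sets changed by -1.22 and -1.27 and the brightest by -0.18. For Rps3, a small-subunit protein at the entry of the message, the dimmer probe set changed by -0.72 and the brightest by -0.21.

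Rps24, a small-subunit gene with alternatively spliced ends, differed between its probe sets in all 3 comparisons. The dimmer one read 182.6, 182.3 and 197.8 with the inhibitor, 821.6, 879.6 and 715.9 with the ligand and 344.7, 294.7 and 370.1 untreated, a clear separation of all 3 groups. It fell by 0.79 under the inhibitor (adjusted p 7.89e-05) and rose by 1.22 under the ligand (adjusted p 9.68e-06). The brightest probe set of Rps24 changed by -0.16 under the inhibitor and 0.01 under the ligand. The exception among the 9 was the dimmer probe set of Rpl37a, which changed by 0.17 against -0.19 for the brightest one. Which transcript forms the dimmer probe sets read was not tested.

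**Figure D3:**
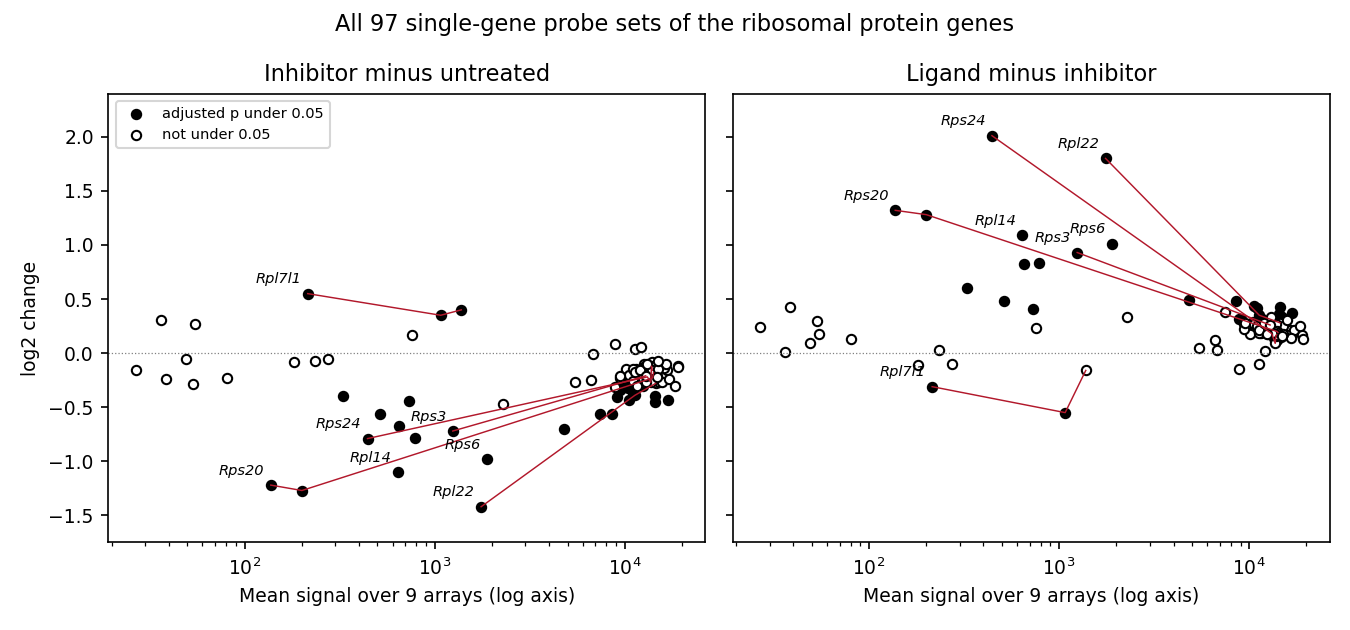
Change of the 97 single-gene probe sets of the ribosomal protein genes against their mean signal over 9 arrays (log axis), left for inhibitor minus untreated and right for ligand minus inhibitor; filled points had an adjusted p under 0.05 and red lines join probe sets above a signal of 100 of the same named gene. Probe sets above 8000 have a median of -0.22 on the left, while those of Rpl22 and Rps20 with lower signals lie at -1.42 and -1.27.

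Members that could be read only through shared probe sets were looked at as a group and without naming genes. Of 110 probe sets whose several symbols include a ribosomal protein gene, 106 passed the filter. Under the inhibitor 39 of these fell (36.8%, where 20.1% of all probe sets fell) and 1 rose (0.943%, where 15.0% did), with a median of -0.27. Against the inhibitor arrays the ligand arrays had 45 higher (42.5%, where 29.4% of all probe sets were) and 1 lower (0.943%, where 17.9% were), with a median of 0.27. These and the single-gene probe sets together made up 140 of the 436 probe sets with a mean signal above 8000.

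Centring each array on its median shifted the whole scale and reduced the calls. The median change of all genes under the inhibitor became 0.06 in place of -0.01, and for ligand against inhibitor -0.09 in place of 0.07. With it the members' medians became -0.14 under the inhibitor, -0.07 under the ligand and 0.09 for ligand against inhibitor. Centring moves the members and all genes by the same amount on each array, so the gap between their medians is unchanged by construction.

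After centring, 9 members fell under the inhibitor (19.5% of all genes) and 1 rose (26.1% of all genes). The 9 were Rpl10a, Rpl11, Rpl12, Rpl13a, Rpl14, Rpl22l1, Rps6, Rps19 and Rps25, and the 1 was Rpl7l1. Under the ligand 0 rose (9.66% of all genes) and 0 fell (14.0% of all genes). In ligand against inhibitor 5 were higher (23.4% of all genes) and 1 lower (32.3% of all genes). The 5 were Rpl12, Rpl14, Rpl22l1, Rps6 and Rps25, and the 1 was Rpl7l1, at -0.31 (adjusted p 0.00227).

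Centring also turned the split over all genes. Under the inhibitor 3379 genes rose and 2525 fell, where 2723 rose and 3087 fell on the deposited scale. For ligand against untreated the split was 1250 and 1812 in place of 1904 and 1201, and for ligand against inhibitor 3023 and 4181 in place of 4193 and 2959.

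Quantile normalization, which makes the distributions of all arrays equal, gave medians of -0.08 under the inhibitor and 0.11 for ligand against inhibitor. It called 18 members lower (22.6% of all genes) and 2 higher (23.4% of all genes) under the inhibitor, the second being Rps27l at 0.19 (adjusted p 0.029). In ligand against inhibitor 21 were higher (28.9% of all genes) and 0 lower (26.9% of all genes).

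**Figure D4:**
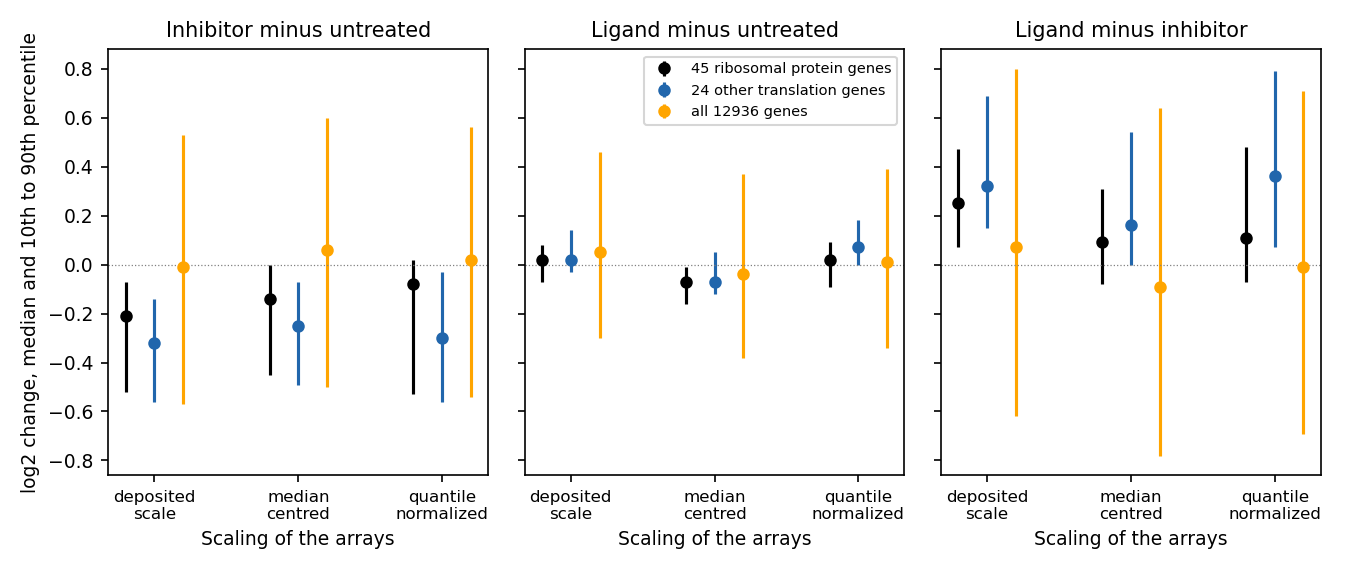
Median log2 change (points) and the 10th to 90th percentile (bars) of the 45 ribosomal protein genes, 24 other genes of translation and all 12936 genes in 3 comparisons, under 3 ways of scaling the arrays. On the left the ribosomal protein median is -0.21 as deposited, -0.14 after centring on array medians and -0.08 after quantile normalization.

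The promoters of the members shared features that had no part in their choice. In the 300-base window from 250 bases before to 50 bases after the annotated start, available for 43 members, 21 held the ETS-factor motif CCGGAAG (48.8%), against 11.9% of 17492 protein-coding genes. The YY1 motif AAGATGG was in 7 (16.3%, against 6.37%) and the SP1 motif GGGCGG in 24 (55.8%, against 46.3%). The TATA box TATAAA was in 5 (11.6%, against 13.3%) and the E-box CACGTG, which Myc can bind, in 3 (6.98%, against 7.9%). Both strands were searched, and each motif was searched alone, so that matches of different motifs may overlap.

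A run of at least 8 pyrimidines within 20 bases of the start was found in 19 of the 43 (44.2%), against 15.5% of all these genes, and the median longest run was 7 bases, against 5. Members with such a run changed by a median of -0.24 under the inhibitor (19 tested), and those with a shorter one by -0.23 (21 tested). As in the sequences shown above, Rpl14 and Rps25 had runs of 14 and 12 bases within the bases searched, where that of Rps25 was cut off. Rpl12, with a change of a like size, had 7. Annotated starts can differ from those used in these organoids.

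Other genes of translation moved the same way as the ribosomal proteins. Of 24 tested translation factors and other messages known to begin with a pyrimidine tract, 16 fell (66.7%, where 23.9% of all genes fell) and 0 rose under the inhibitor, with a median of -0.32. Against the inhibitor arrays 15 were higher with the ligand (62.5%, where 32.4% of all genes were) and 0 lower, with a median of 0.32. After centring on array medians 11 fell under the inhibitor, and 9 were higher in ligand against inhibitor. With the ligand against untreated 1 rose and 0 fell. Eif4b, a helper of the helicase that unwinds messages, averaged 3423 ± 199 with the inhibitor, 6154 ± 938 with the ligand and 6056 ± 361 untreated (SD, n = 3 each), a change of -0.82 ± 0.10 under the inhibitor (adjusted p 2.3e-05). Npm1, a nucleolar chaperone of ribosome assembly that averaged 12776 ± 810 untreated, changed by -0.59 ± 0.10 (adjusted p 0.000232) and the splicing factor Hnrnpa1 by -0.57 ± 0.08 (adjusted p 7.22e-05).

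Other named messages of that list did not pass the test under the inhibitor. The elongation factors Eef1a1 and Eef2 changed by -0.09 ± 0.15 (adjusted p 0.645) and -0.30 ± 0.12 (adjusted p 0.0545). Tpt1 changed by -0.12 ± 0.17 (adjusted p 0.598) and Pabpc1, the poly(A)-binding protein, by -0.22 ± 0.16 (adjusted p 0.277). Outside that list, Fau, which encodes a small-subunit protein under a name that the pattern does not match, changed by -0.26 ± 0.13 (adjusted p 0.143).

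Of 22 tested regulators of these messages, 3 rose under the inhibitor (13.6%, where 21.0% of all genes rose). Another 5 fell (22.7%, where 23.9% of all genes fell). Under the ligand 4 rose (18.2%, where 14.7% of all genes rose) and 2 fell (9.09%, where 9.28% did). Myc averaged 701.2 ± 10.8 with the inhibitor, 1487 ± 6.43 with the ligand and 1185 ± 119 untreated (SD, n = 3 each). It changed by -0.74 ± 0.08 under the inhibitor (adjusted p 5.02e-06) and by 0.33 ± 0.08 under the ligand (adjusted p 0.00662). Mycn, its relative, changed by -0.97 ± 0.13 (adjusted p 5.06e-05) and 0.58 ± 0.13 (adjusted p 0.00628).

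Mxd1, which competes with Myc for its partner Max, rose by 1.26 ± 0.08 under the inhibitor (adjusted p 7.95e-08). Its relative Mxd4 ran the other way, with -0.30 ± 0.12 under the inhibitor (adjusted p 0.0603) and 0.58 ± 0.12 under the ligand (adjusted p 0.00383). Ddit4 changed by -0.33 ± 0.09 (adjusted p 0.00704) and 0.60 ± 0.09 (adjusted p 0.000259). Deptor was lower in both, by -0.40 ± 0.06 (adjusted p 0.000213) and -0.31 ± 0.06 (adjusted p 0.00341). Larp1, which binds pyrimidine-tract messages, changed by -0.44 ± 0.08 under the inhibitor (adjusted p 0.000479) and by 0.07 ± 0.08 under the ligand (adjusted p 0.57). Eif4ebp1, a translation repressor that mTOR inactivates, changed by 0.01 ± 0.07 (adjusted p 0.942) and -0.32 ± 0.07 (adjusted p 0.00655).

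The ribosome of mitochondria, built from a separate set of nuclear genes, was also lower under the inhibitor. Of its 73 genes 38 fell (52.1%, where 23.9% of all genes fell) and 3 rose, with a median of -0.23. Under the ligand 13 fell (17.8%, where 9.28% of all genes fell) and 0 rose, with a median of -0.11. In ligand against inhibitor 30 were higher (32.4% of all genes) and 9 lower (22.9% of all genes), with a median of 0.13. Centring on array medians gave 31 lower (19.5% of all genes) and 4 higher (26.1% of all genes) under the inhibitor (median -0.16). Under the ligand it gave 24 lower (14.0% of all genes, median -0.20). In ligand against inhibitor centring turned the split to 17 higher (23.4% of all genes) and 23 lower (32.3% of all genes), with a median of -0.03. The split over all genes turned in the same way. Mrps28 changed by -0.91 ± 0.08 under the inhibitor (adjusted p 1e-06) and Mrpl37 by -0.78 ± 0.07 (adjusted p 2.08e-06). Mrps36, long counted among these proteins, went the other way, with 0.45 ± 0.08 under the inhibitor (adjusted p 0.000344) and -0.41 ± 0.08 under the ligand (adjusted p 0.00194).

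Markers of cell state and of the secretory cell types differed between the groups. For the counts below, 23.9% of all genes fell and 21.0% rose under the inhibitor. With the ligand against untreated 9.28% of all genes fell and 14.7% rose. Of 21 tested cell cycle genes 20 fell under the inhibitor, and their summed signal was 30859 to 33536 on inhibitor arrays, 54374 to 59689 on ligand arrays and 50124 to 54993 on untreated arrays. Of 16 stem and progenitor genes 14 fell and 1 rose, with sums of 22186 to 24496 on inhibitor arrays, 59444 to 69671 on ligand arrays and 44712 to 51266 on untreated arrays. Of 21 tested enterocyte genes 12 rose and 1 fell, with sums of 128661 to 152718 on inhibitor arrays, 90405 to 103885 on ligand arrays and 115402 to 127436 on untreated arrays. With the ligand against untreated, where the members' median was 0.02, 12 of the 16 stem and progenitor genes rose and 0 fell (median 0.77). Of the cell cycle genes 5 rose and 4 fell (median 0.01), and of the enterocyte genes 1 rose and 11 fell (median -0.30).

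Of 8 tested Paneth cell genes 4 fell and 0 rose under the inhibitor, with sums of 30575 to 37047 on inhibitor arrays, 44678 to 61789 on ligand arrays and 38024 to 47929 on untreated arrays. Of 11 goblet cell genes 7 fell and 0 rose, with sums of 27100 to 32166 on inhibitor arrays, 35936 to 43811 on ligand arrays and 36538 to 43769 on untreated arrays. Of 6 tested tuft cell genes 3 fell and 0 rose, with sums of 203 to 209 on inhibitor arrays, 876 to 962 on ligand arrays and 370 to 470 on untreated arrays. Of 10 enteroendocrine genes 4 rose and 2 fell, with sums of 13780 to 14553 on inhibitor arrays, 17241 to 18642 on ligand arrays and 12203 to 14351 on untreated arrays. The sums of Paneth, goblet and tuft genes were thus lower on every inhibitor array than on any other array.

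Summed fibroblast markers were 261 to 334 on inhibitor arrays, 404 to 486 on ligand arrays and 373 to 412 on untreated arrays. Of the tested fibroblast genes only Vim fell under the inhibitor (-1.11 ± 0.14, adjusted p 3.33e-05). Col1a2, Pdgfra and Acta2 changed by 0.03, 0.42 and 0.22 and did not pass the test. Summed leukocyte markers were 349 to 417 on inhibitor arrays, 201 to 247 on ligand arrays and 231 to 272 on untreated arrays. The actin 3′ to 5′ ratio, a sign of RNA integrity and labelling, was 0.18 to 0.24 on the log2 scale on inhibitor arrays. It was 0.40 to 0.58 on ligand arrays and 0.37 to 0.43 on untreated arrays. The same ratio for Gapdh was -0.29 to -0.27 on inhibitor arrays, -0.29 to -0.25 on ligand arrays and -0.27 to -0.25 on untreated arrays. The Gapdh ranges met or overlapped, so only actin set the inhibitor arrays apart. The part of all these markers in the members' changes was not tested.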

How the data were processed

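RNA was measured on 9 Affymetrix Mouse Genome 430 2.0 arrays, 3 per group, grouped by the treatment and replicate number in the labels. Per the labels RNA was isolated by a column kit, then amplified and biotin-labelled by a 3′ method. The values as deposited are linear intensities, summarised with MAS5 per the submitters' processing notes (version not given in the sources used here). Their trimmed mean was 350 on every array, so differences in total RNA are not kept.

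Probe sets with 1 symbol (34945) were kept, and those with several (932) or none (9160) were not named. Values became log2(signal + 16), which understates changes of dim genes. Probe sets had to exceed their array's 40th percentile on at least 3 arrays, and the brightest stood for its gene, also where it ended in _x_at, as for 12 members, which can read related sequences.

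Comparisons used limma 3.58.1 (R 4.3.3), with 1 mean per group over 9 arrays, 6 residual degrees of freedom and Benjamini-Hochberg adjustment over 12936 genes at 0.05. The steps were tested on simulated data. Tables and figures used Python 3.11.15, pandas 2.3.3, numpy 2.4.6 and matplotlib 3.10.9. Alternatives were array centring, quantile normalization, offsets of 1 and 64, other filters and probe set choices, no intensity trend, only 2 groups, a replicate block and leaving out each array. Named were the 6 rising and 6 falling members with the largest change among called members whose groups do not overlap, a fixed set of members and, of other lists, fixed genes and those with the smallest p. Members and lists were chosen with earlier results of these data known. Present calls were not used here. The number of arrays limits the precision.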

Additional observations from a re-analysis of the deposited data

How the results depend on the processing

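Of the 15 members called under the inhibitor, 10 kept their call in all 20 alternatives other than centring on bright genes, and of the 15 called in ligand against inhibitor 5 did: Rpl12, Rpl14, Rpl22l1, Rps6 and Rps25. Centring arrays on their medians left 9 members lower under the inhibitor, 0 higher under the ligand, and 5 higher and 1 lower in ligand against inhibitor. Quantile normalization called 2 higher under the inhibitor. The stricter filter called 1 lower in ligand against inhibitor, and the mean of probe sets 22 lower under the inhibitor and 1 lower in ligand against inhibitor. Putting _x_at and _s_at probe sets last called 2 higher under the ligand, since the dimmer Rps24 probe set then stood for its gene. Centring on 166 other bright genes, chosen after the data were seen, called 23 lower under the inhibitor (17.3% of all genes), 2 higher under the ligand (13.7% of all genes) and 39 higher in ligand against inhibitor (30.2% of all genes). Leaving out 1 array at a time gave 10 to 20 members lower and 1 higher under the inhibitor (median -0.29 to -0.12), 0 to 1 higher under the ligand (median -0.09 to 0.11) and 10 to 24 higher in ligand against inhibitor (median 0.12 to 0.30). Over all genes, deviations of same-numbered arrays correlated at -0.077 to 0.082 over 9 pairs, so no pairing by number was seen there. The median of the 36 bright members was nevertheless lowest on replicate 1 of each group. It was 13.46 on the inhibitor, 13.69 on the ligand and 13.77 on the untreated replicate 1. The median of the 166 other bright genes was lowest on these same arrays, at 13.21, 13.23 and 13.31, so this was not particular to the members. Pairing among the members alone was not tested. A replicate block called 20 lower under the inhibitor and 22 higher in ligand against inhibitor, and all 15 calls of each were kept. Shares of all genes are not given for the block, the stricter filter, the probe set choices or the left-out arrays. Those counts of members therefore cannot be set against all genes. Members that did not pass the test turned sign under the inhibitor: Rps4x to 0.00 by centring and 0.08 by quantile normalization, Rpl39 to 0.01 by quantile normalization and 0.02 without untreated replicate 3, Rps27 to 0.17 without inhibitor replicate 2 and 0.13 without untreated replicate 2, and Rps27l to -0.01 without inhibitor replicate 2. Over the arrays left out, Rpl39 ranged between -0.13 and 0.02, Rps27 between -0.39 and 0.17 and Rps27l between -0.01 and 0.14. The causes were not tested. Signals near the top of the arrays' range may limit what the 36 bright members can show, but whether and where they saturate was not tested.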
